A study of Mus musculus with 81 samples.

Results

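Open primed enhancer-type regions of a mouse T cell line are described here. They are the regions of the deposited ATAC-seq list of the control line that overlap the deposited H3K4me1 list by at least 1 bp and overlap none of the H3K27ac, H3K4me3 or RBPJ lists. The rule found 7724 such regions among 47748 open regions, or 16.2%. The study asked how RBPJ, the DNA-binding factor of the Notch pathway, acts in a hybridoma mature T cell line, which grows in culture. ATAC-seq marks DNA that a transposase can enter, and chromatin immunoprecipitation (ChIP-seq) marks DNA bound by RBPJ or wrapped around modified histones. The edited lines 2-12 and 2-14 had been depleted of RBPJ with CRISPR, and the control line is named Control_sgRbpj. The labels do not say whether a line is a single clone. The cells behind the second RBPJ list carried BioNICD1, a biotin-tagged intracellular domain of Notch1.

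Enhancers are stretches of DNA away from a promoter that raise the transcription of a gene. Monomethylation of lysine 4 of histone H3 (H3K4me1) is laid down at them mainly by the methyltransferases KMT2C and KMT2D, trimethylation of the same residue (H3K4me3) marks promoters, and acetylation of lysine 27 (H3K27ac), a mark placed by EP300 and CREBBP, is found at enhancers and promoters in use. An open region with H3K4me1 and without H3K27ac is called primed, because such sites can gain acetylation when a cell is stimulated or differentiates, although many do not.

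The lists hold positions only. Their score column was 0 in every entry, so how strong a mark or how open a region was could not be compared, and the lists have no replicates. Words such as acetylated, unmarked or free of a mark refer to the lists alone. A site outside a list may still carry the mark below the level that was listed. The histone mark lists name no line. These marks were profiled in line 2-12 and in the control line, so each list may hold regions of both. The regions were chosen by measured values, the overlaps of these lists, so everything that rests on the overlaps is given as a description with no test. All positions are on the mouse build mm9 and are counted from 1.

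The primed regions were short, narrow openings. Their median length was 480 bp, with quartiles of 408 and 597 bp, and 159 of them (2.06%) were at least 1000 bp long. They covered 4.04 Mb, which is 10.9% of all open sequence. Open regions with both H3K4me1 and H3K27ac and with neither H3K4me3 nor RBPJ, called active here, numbered 4747 (9.94%) and had a median length of 534 bp. Open regions with H3K4me3 and no RBPJ were the most common kind, at 23648 (49.5%), with a median of 816 bp, and 33.9% of them were at least 1000 bp long. Open regions that overlapped either RBPJ list numbered 4095 (8.58%) and had a median of 1257 bp. Open regions with none of the listed marks numbered 7137 (14.9%), with a median of 465 bp. A further 397 open regions (0.831%) had H3K27ac without H3K4me1, H3K4me3 or RBPJ. In length the primed regions therefore stood next to the unmarked and the active ones, and well below the promoter-type and RBPJ regions. A longer open region has more bases that can meet a list, so this order is in part fixed by the rule.

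**Figure D1:**
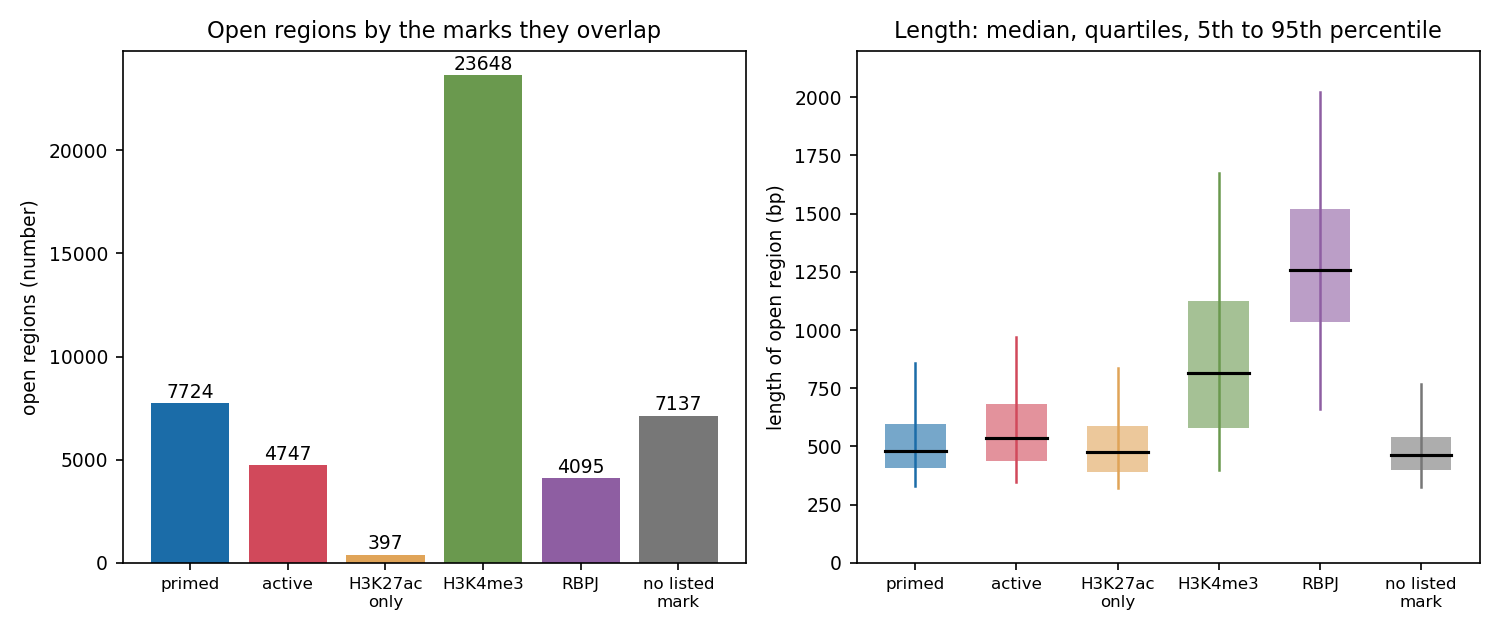
Number of open regions in each class (left, bars) and their length in bp (right; line, median; box, quartiles; thin line, 5th to 95th percentile). The class written "H3K27ac only" has H3K27ac and no H3K4me1, H3K4me3 or RBPJ; the 7724 primed regions have a median length of 480 bp and the 4747 active regions one of 534 bp.

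H3K4me1 by itself did not single these sites out. Of all open regions, 31937 (66.9%) overlapped H3K4me1, and the primed ones made up 24.2% of those. H3K27ac was present on 66.0% of the open regions with H3K4me1, H3K4me3 on 60.6% and both on 51.0%, while RBPJ was present on 6.91%. Open sites with H3K4me1 were thus more often acetylated than not, but 16280 of the 21079 acetylated ones also had H3K4me3. Among those with neither H3K4me3 nor RBPJ the order was the other way. Of these, 4747 overlapped the H3K27ac list (the active class) and 7724 did not (the primed class).

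Most of the primed regions lay inside their H3K4me1 region. H3K4me1 covered 4925 of them (63.8%) from end to end, against 73.5% of the active regions, and covered at least 50% of the length of 6772 (87.7%). Only 50 primed regions were covered over less than 10% of their length. A single H3K4me1 region reached 7464 of them, and 260 (3.37%) touched 2 or more, against 9.80% of the active regions. Such a region spans a gap in the mark, and most primed openings spanned none.

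The rule turns on single bases, and some regions sit next to its border. Of the primed regions, 55 overlapped H3K4me1 by at most 50 bp, and 58 had an H3K27ac, H3K4me3 or RBPJ region within 50 bp. The region chr11:22569217-22569668 shared 1 bp with H3K4me1 and was kept. The region chr1:180695804-180696209 abutted an H3K27ac region, with 0 bp between them, and was kept as well. On the other side, 56 active regions overlapped H3K27ac by at most 50 bp, and chr10:21922482-21923037 fell out of the primed class by a shared 1 bp. Another 51 unmarked open regions lay within 50 bp of H3K4me1, and chr12:26999695-27000262 abutted it. An excluding region lay within 500 bp of 331 primed regions (4.29%) and within 1000 bp of 600 (7.77%).

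Away from the open site H3K4me1 fell off quickly. At the centre of the open regions the mark covered 87.0% of the primed class and 88.4% of the active class. At 500 bp from the centre it covered 54.5% of the primed regions and 78.5% of the active ones (mean of both sides). At 1000 bp the shares were 14.5% of the primed regions and 33.5% of the active regions. At 5000 bp they were 8.26% of the primed regions and 11.7% of the active regions. The stretch of H3K4me1 around the primed sites was the narrower one at each of these distances from 500 bp on. H3K27ac, absent at the centre by the rule, covered 0.990% of the primed regions at 500 bp and 4.02% at 5000 bp, against 0.841% of the unmarked regions at 500 bp and 3.02% of them at 5000 bp.

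**Figure D2:**
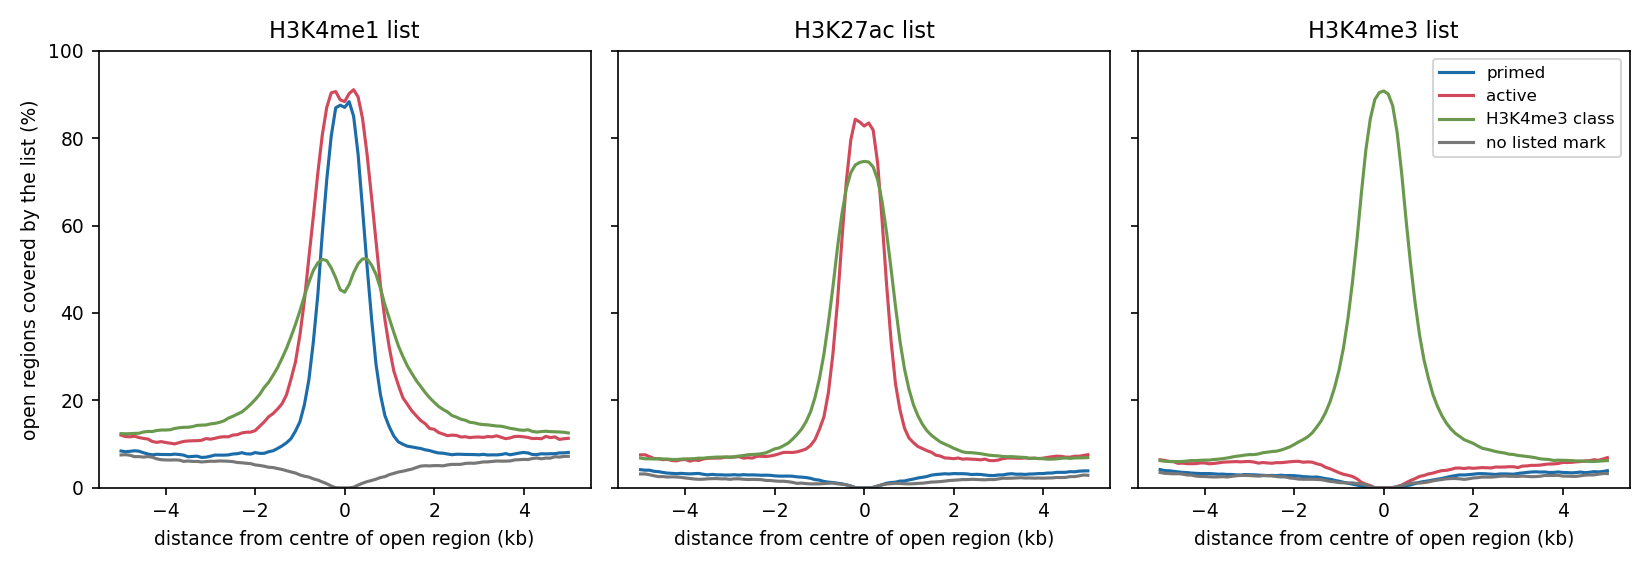
Share of open regions (%) covered by each histone mark list at a given distance (kb) from the centre of the open region, at points 100 bp apart, for 4 classes drawn as lines. As the mean of both sides, H3K4me1 covers 54.5% of primed and 78.5% of active regions at 500 bp. In the same measure, H3K27ac stays at or under 4.02% of the primed regions at the distances named in the text.

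The H3K4me1 regions that carried these sites were a small share of the list. Of 112017 H3K4me1 regions, 7930 (7.08%) held a primed region, and their median length was 1022 bp. The H3K4me1 regions with an active open region had a median of 1398 bp, and those with no open region at all had one of 756 bp. Most primed regions with a single H3K4me1 region had their centre near its middle. The median distance between the 2 centres was 150 bp, against 185.5 bp for the active regions. Of the primed centres, 70.2% lay in the middle 50% of the H3K4me1 region, against 77.1% of the active ones. Outside it lay 11.5% of the primed and 6.70% of the active centres. These H3K4me1 regions had medians of 1050.5 bp at primed and 1505 bp at active sites. An opening inside a region not much longer than itself cannot lie far from its middle, so these values are in part fixed by length.

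Most H3K4me1 regions at primed sites were free of the other marks along their whole deposited length. The H3K4me1 region of 7311 primed sites (94.7%) met neither H3K27ac nor H3K4me3 anywhere along its length. The rule already kept both marks off the open region itself, so this share is in part fixed by the rule. For 323 primed sites (4.18%) it overlapped H3K27ac outside the open region, and for 278 (3.60%) it overlapped H3K4me3. The share for H3K27ac was 8.75% when H3K4me1 regions closer than 1000 bp were merged. The hosts that also met H3K27ac were longer, with a median of 2071 bp. An active open region shared the same H3K4me1 region in 38 cases.

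Seen from the side of the mark, 61317 H3K4me1 regions (54.7%) met neither H3K27ac nor H3K4me3. Of these, 8225 (13.4%) held an open region, against 54.2% of the 50700 H3K4me1 regions that did meet one of these marks. The share by length was 7.83% for those shorter than 500 bp, 10.9% from 500 to 1000 bp, 22.6% from 1000 to 2000 bp and 35.0% at 2000 bp or more. Per Mb of H3K4me1 sequence, however, these bins held 226, 149, 176 and 137 open regions from the shortest to the longest. The share per region thus rose with length, and the density did not.

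No H3K4me1 region held more than 2 primed regions, and 56 held 2. The longest of these was chr13:19456114-19460000, which spans 3887 bp and holds openings of 491 and 508 bp set 639 bp apart. The others named by length were chr6:71671289-71674518, chr12:108733305-108736019, chr10:111130904-111133585 and chr2:13219068-13221552. Each of these 5 held no other open region, and none met H3K27ac or H3K4me3.

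Most primed regions lay kilobases away from the nearest listed H3K27ac region. The median gap to the nearest H3K27ac region was 13559 bp, with quartiles of 5354 and 36746 bp, against 17804 bp for the unmarked open regions. An H3K27ac region lay less than 1000 bp away from 5.93% of the primed regions, 1000 to 10000 bp away from 2740 (35.5%) and 10000 to 50000 bp away from 3091 (40.0%). For 636 of them (8.23%) it was at least 100000 bp away, as it was for 13.9% of the unmarked regions. The median gap to H3K4me3 was 12573 bp, against 8441 bp for active and 14942 bp for unmarked regions. The primed class thus stood between the active and the unmarked class in its distance from promoter-type chromatin.

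**Figure D3:**
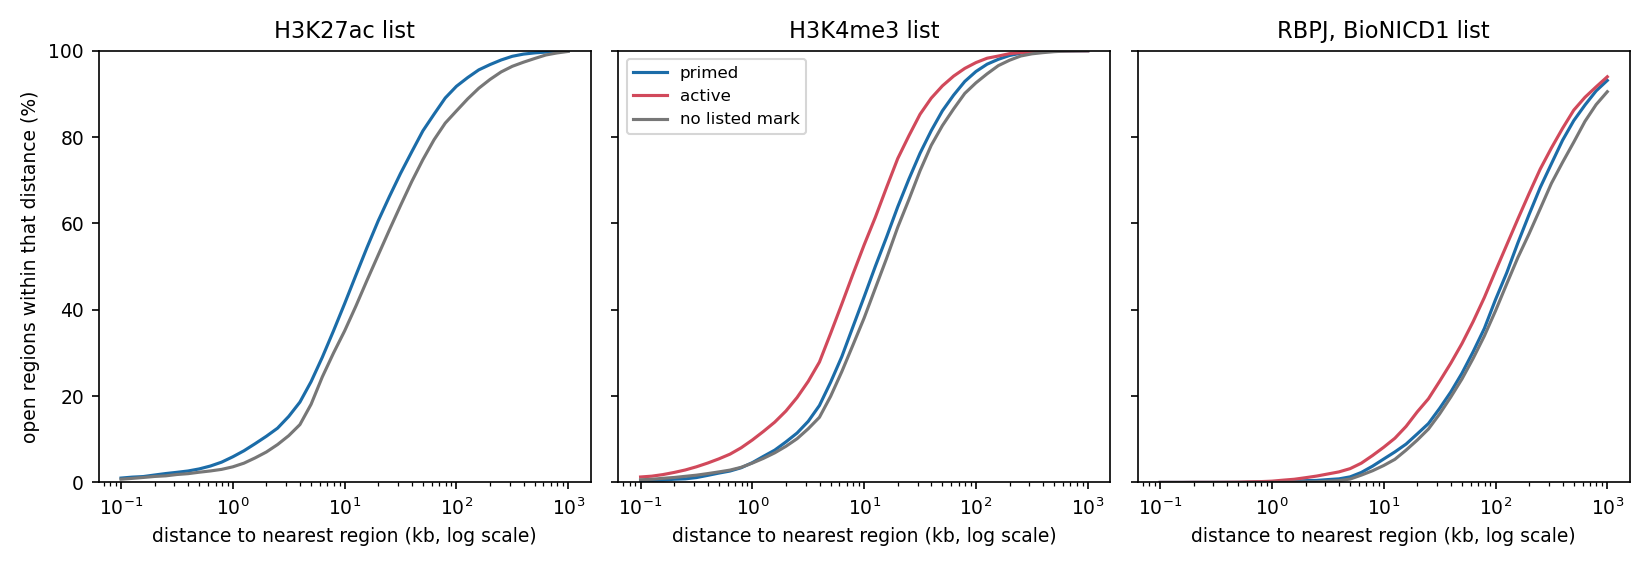
Cumulative share of open regions (%) whose nearest H3K27ac, H3K4me3 or RBPJ (BioNICD1 list) region lies within the distance on the log-scaled axis (kb). The primed line has its median at 13559 bp for H3K27ac, where active regions are not drawn because they overlap it, and at 12573 bp for H3K4me3, between the active and the unmarked class.

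The 5 primed regions farthest from H3K27ac show how isolated some sites were. The farthest, chr3:7006085-7006527, is 443 bp long, fully covered by H3K4me1 and 1110001 bp from the nearest H3K27ac region, yet 206178 bp from the nearest H3K4me3 region. The region chr1:159969929-159970321 lay 978228 bp from H3K27ac and 938233 bp from H3K4me3. The region chr1:149084159-149085169 is 1011 bp long and lay 931002 bp from H3K27ac. The region chr8:38240556-38240973 lay 925611 bp from H3K27ac, and the remaining one, on chromosome 18, lay 1033156 bp away. Of these 5, 4 were fully covered by H3K4me1.

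The 5 longest primed regions ranged widely in how much of them the mark covered. The longest, chr5:89632921-89635145, spans 2225 bp, was covered over 61.5% of its length, and lay 963 bp from H3K27ac and 355 bp from H3K4me3. H3K4me1 covered 33.7% of the 1793 bp of chr8:131270396-131272188 and 20.2% of the 1664 bp of chr9:7799168-7800831. It covered 8.36% of the 1663 bp of chr5:104759800-104761462. Of the 5 longest, chr17:27030663-27032285, with 1623 bp, was covered over 91.7%. Over all primed regions, the share covered from end to end was 74.2% for those of 227 to 407 bp, 69.1% for those of 408 to 479 bp, 62.8% for those of 480 to 596 bp and 49.1% for those of 597 to 2225 bp, with about equal numbers in each bin. A longer open region has more bases to cover, so the order of these shares is in part fixed by length.

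By the rule no primed region overlapped RBPJ, and few lay near it. Of the primed regions, 419 (5.42%) lay within 10000 bp of a region of the RBPJ list from BioNICD1 cells, which holds 3735 regions, and 217 (2.81%) lay within 10000 bp of one from the control line, which holds 1752. For the BioNICD1 list the share was 8.15% of the active and 3.92% of the unmarked regions. For the control list it was 3.69% of the active and 2.09% of the unmarked regions. Both lists had a region that near for 154 primed regions, the BioNICD1 list alone for 265 and the control list alone for 63. The lists differ in length, so the larger count for BioNICD1 is not evidence of a change at these sites. Of the RBPJ regions, 415 of the BioNICD1 list (11.1%) and 209 of the control list (11.9%) had a primed region within 10000 bp.

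Within 1000 bp of RBPJ there were 7 primed regions for the BioNICD1 list and 2 for the control list. The nearest to BioNICD1 RBPJ, chr12:55798123-55798704, lay 191 bp from it and 327686 bp from the nearest region of the control list. The nearest to control RBPJ, chr2:164346326-164346600, lay 670 bp from it and 656 bp from BioNICD1 RBPJ, with H3K27ac 431 bp and H3K4me3 400 bp away. The second, chr9:96568982-96569388, lay 931 bp from control RBPJ and 85050 bp from BioNICD1 RBPJ. The second nearest to BioNICD1 RBPJ, chr10:44285817-44286239, lay 547 bp from it, and its nearest H3K27ac and H3K4me3 regions lay 26419 and 26164 bp away. These regions were chosen after the distances were seen, and they differ among themselves in how near the histone marks are. The region on chromosome 12 lay 322 bp from H3K27ac and that on chromosome 9 lay 1058 bp from it.

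Primed regions were most often next to a promoter-type region, and about 1 in 5 was next to another primed region. The nearest open region was itself primed for 20.1% of them, against 13.2% of the active, 18.1% of the unmarked and 15.3% of all open regions. It was an H3K4me3 region for 46.3% of the primed and 51.5% of all open regions. The median gap to the nearest open region was 9141 bp for the primed class, 6891 bp for the active and 10941 bp for the unmarked class. The classes share chromosomal neighbourhoods, so these shares are a description.

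They seldom formed long runs. When primed regions less than 12.5 kb apart were joined, 6411 (83.0%) remained alone and 1313 (17.0%) fell into 617 groups. Of these groups, 553 held 2 regions, 53 held 3 and 9 held 4. The median gap to the nearest primed region was 52987 bp. The largest group, with 7 primed regions, was chr2:26153796-26185290 over 31.495 kb. It also held 1 unmarked open region, 1 H3K27ac region and 1 H3K4me3 region, the last 2 next to the primed region chr2:26172263-26172738, which lay 439 bp from H3K27ac and 219 bp from H3K4me3. H3K4me1 covered 4 of the 7 from end to end, 96.5% of chr2:26168397-26168710, 41.3% of chr2:26181245-26181735 and 41.5% of chr2:26184980-26185290. The nearest RBPJ region of either list lay 59.456 kb or more from each of them.

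The next group, with 5 primed regions, was chr9:56718658-56749420 over 30.763 kb, and it held no H3K27ac and no H3K4me3 region. Its primed regions are 289, 374, 404, 472 and 435 bp long in genome order. H3K4me1 covered all of them from end to end except the fourth, of which it covered 38.1%. The nearest H3K27ac region lay 22760 to 53234 bp away from these regions, and the nearest RBPJ region of either list lay at least 452.53 kb away.

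**Figure D4:**
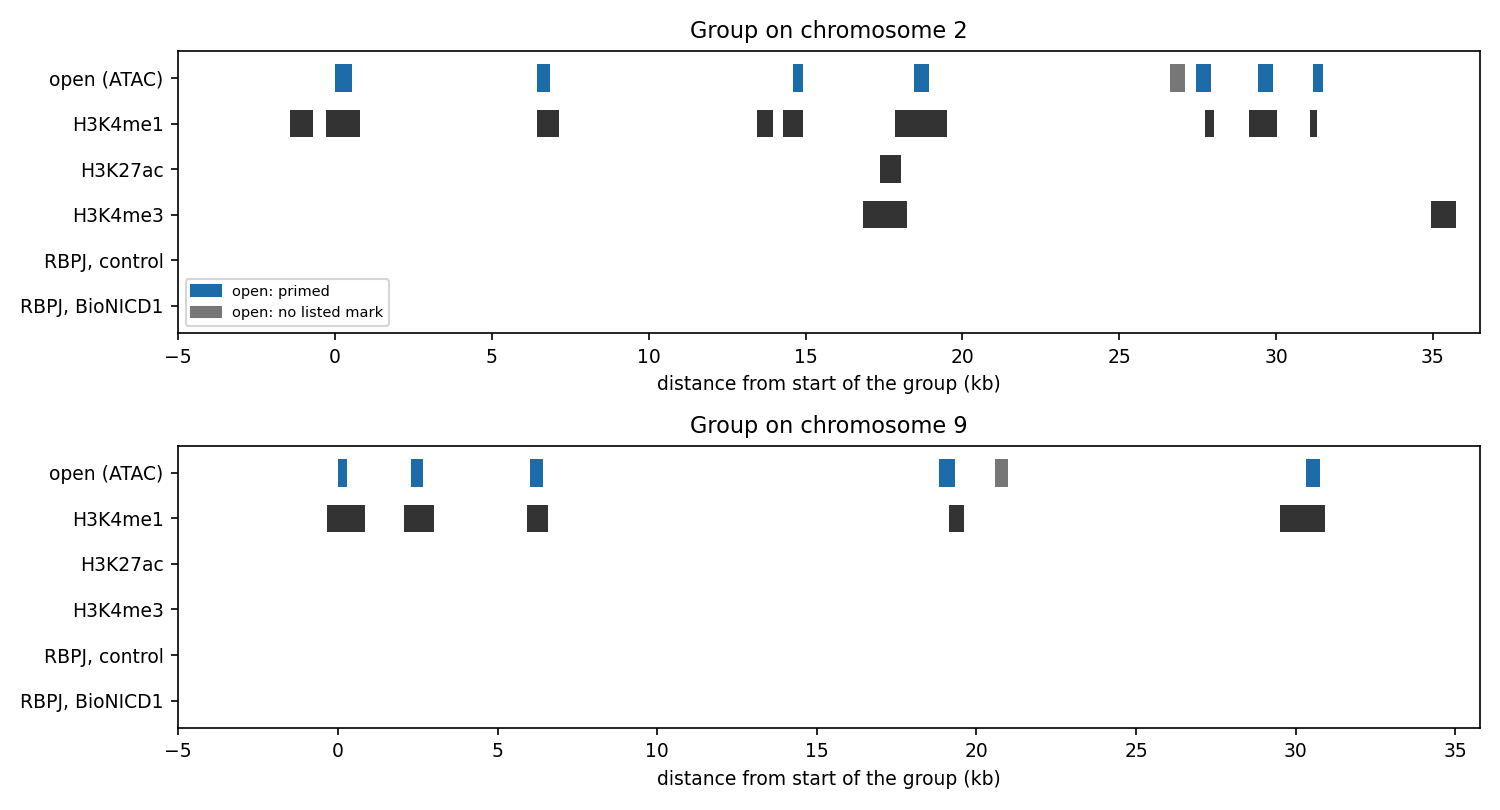
Maps of the 2 largest groups of primed regions, with distance from the start of the group in kb and a track for each deposited list (blue, primed open region; grey, unmarked open region; black, region of the list named on the left). The chromosome 2 group holds 7 primed regions and 1 H3K27ac region, and the chromosome 9 group holds 5 primed regions and no H3K27ac, H3K4me3 or RBPJ region.

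The class was spread over the genome. On the 19 autosomes it made up 14.3% (chromosome 11) to 18.7% (chromosome 19) of the open regions, with a median of 16.8%. On the X chromosome it made up 12.5%, or 168 of 1346 open regions, below every autosome. Of the primed and active regions counted as a whole, the primed share was 60.0% on the X chromosome and 58.6 to 65.5% on the autosomes, so the X chromosome stood within the autosomes in that ratio. Chromosome Y and the mitochondrial genome held no primed region among their 3 and 2 open regions.

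The region lists give no level per condition. Beside them, genes that write, read and erase these marks were examined by RNA-seq in line 2-12, line 2-14 and the control line, with 2 libraries each. The RNA of these genes does not measure the marks at the primed regions, and no gene was linked to a region. The library totals were 2377028 to 5998832 counts. Levels of tested genes are CPM, counts scaled to a library total that the TMM factor of edgeR has adjusted. Summed levels and the levels of untested genes are CPM of the library total without that factor. The 4 values of the edited lines are given with line 2-12 before line 2-14. Nothing in the labels says that the libraries come from separate cultures. A mean was fitted for each line, so p-values measure the spread between the 2 libraries of the same line. Differences between lines 2-12 and 2-14 do not enter that spread. There is a single control line, so RBPJ depletion and other differences between the lines cannot be told apart. Rbpj, the depleted gene, had 44.2 and 31.4 CPM in line 2-12 and 59.6 and 41.8 CPM in line 2-14, against 182 and 133 CPM in the control line. The edited lines lay below the control, with a log2 fold change of -1.85 (SE 0.21; edgeR quasi-likelihood adjusted p = 0.0043). The T cell markers Cd3e, Cd3d, Cd3g, Lck, Zap70, Lat and Thy1 were present in all 6 libraries, with summed levels of the 11 markers of 1040 to 1274 CPM in the edited lines and 1049 to 1123 CPM in the control line. Cd8a was at 0 in every library and Cd5 did not exceed 1.229 CPM. Cd4 had 60.93 to 167.3 CPM in the edited lines and 0.8975 and 2.273 CPM in the control line (log2 fold change 5.75, SE 0.25, edgeR adjusted p = 0.000132).

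In edgeR, 1144 of 11566 genes passed the threshold of an adjusted p under 0.05 for the mean of both edited lines against the control, which is 9.89% (718 higher, 6.21%; 426 lower, 3.68%). Of 80 genes in 8 lists of chromatin and T cell factor genes, 78 were tested and 7 passed, which is 8.97%, with 4 higher and 3 lower. That share is close to the background of all genes. With a library left out, 2 or 3 list genes passed, except that 15 did without control replicate 2 (7 higher, 8 lower). The median log2 fold change of the 78 was 0.05, against -0.0045 for all genes tested. Ets1 and Bach2, factors of lymphocytes, were too low to be tested, at 0 to 1.262 CPM and 0 to 0.2457 CPM.

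Whether the writers of these marks passed depended on the fit. Without a block, none of the 10 members of the H3K4 monomethyl writer complexes, of the 7 trimethyl writers or of the 5 H3K27 acetylation writers and readers passed. With the replicate number as a block, 4 monomethyl writers, 3 trimethyl writers and 2 acetylation writers or readers were higher in the edited lines and none was lower. In that fit 36.8% of all genes passed (18.3% higher and 18.5% lower). The median log2 fold change without the block was 0.12 for the monomethyl writers, 0.30 for the trimethyl writers and 0.20 for the acetylation list. Without the TMM factor, the trimethyl writers summed to 986.2 to 1070 CPM in the edited lines and to 756.4 and 899.7 CPM in the control line. Kmt2c, an H3K4 monomethyltransferase gene, had 244, 168, 220 and 165 CPM in the edited lines and 171 and 178 CPM in the control line. Its groups overlapped (log2 fold change 0.19, SE 0.19, edgeR adjusted p = 0.527). Ep300, an H3K27 acetyltransferase gene, had 165, 112, 158 and 108 CPM in the edited lines and 127 and 110 CPM in the control line. Its groups overlapped too (0.19, SE 0.22, edgeR adjusted p = 0.57). Setd1a, a gene for an enzyme that trimethylates H3K4, averaged 109 ± 13.2 CPM in line 2-12, 110 ± 17.2 CPM in line 2-14 and 105 ± 5.12 CPM in the control line (SD, n = 2 each; log2 fold change 0.06, edgeR adjusted p = 0.808). These 3 genes were named by their place in the lists, and they did not pass with the block either.

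Of the 22 genes in these 3 lists, 6 had higher values in every edited library than in both control libraries and 1, Kdm6a, had lower values. The 6 are named after their values were seen. Kmt2d, the other main H3K4 monomethyltransferase gene, had 330.1, 157.3, 298 and 175.1 CPM in the edited lines and 155.7 and 129.4 CPM in the control line (log2 fold change 0.75, SE 0.34, edgeR adjusted p = 0.192, and 0.00665 with the block). Its libraries numbered 1 lay above those numbered 2 in each line. Kmt2a, an H3K4 methyltransferase gene, had 249.8, 149.8, 210.7 and 152.3 CPM in the edited lines and 135.1 and 112.4 CPM in the control line (0.63, edgeR adjusted p = 0.142, and 0.00308 with the block). Crebbp, the second H3K27 acetyltransferase gene, had 174.5, 148.8, 145.2 and 131.7 CPM in the edited lines and 114 and 117 CPM in the control line (0.37, edgeR adjusted p = 0.0828, and 0.0116 with the block). Ncoa6, Ash2l and Kmt2b also passed with the block (log2 fold changes without it 0.44, 0.27 and 0.51). Of all genes tested, 43.8% had groups that did not overlap, so 7 of 22 is no high share.

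Of the erasers and repressors, 5 H3K4 demethylases, 11 deacetylase corepressors and 4 genes of Polycomb repressive complex 2 were tested. In each list 1 gene passed the threshold and was lower in the edited lines, and none was higher. Over all genes tested, 3.68% were lower. With the replicate number as a block, 2, 3 and 1 were lower and none was higher, in a fit where 18.5% of all genes were lower. Kdm5b, a demethylase of trimethylated H3K4, had 138, 105, 177 and 116 CPM in the edited lines and 242 and 228 CPM in the control line (log2 fold change -0.82, SE 0.19, edgeR adjusted p = 0.0428). Kdm1a, the demethylase LSD1, which removes H3K4 mono- and dimethylation, had 185 to 207 CPM in the edited lines and 201 and 209 CPM in the control line (-0.07, edgeR adjusted p = 0.617). Rcor1, the partner of LSD1 in the CoREST complex, had 121 to 136 CPM in the edited lines and 180 and 168 CPM in the control line (-0.46, SE 0.10, edgeR adjusted p = 0.0319). Ezh1, a catalytic subunit of Polycomb repressive complex 2, which methylates H3K27, averaged 115 ± 2.02 CPM in line 2-12, 123 ± 0.0109 CPM in line 2-14 and 158 ± 0.648 CPM in the control line (SD, n = 2 each; -0.41, edgeR adjusted p = 0.0347). The groups did not overlap for Kdm5b, Rcor1 and Ezh1, which also held for 43.8% of all genes tested. Of the 6 fits that each leave out a library, Kdm5b passed only without line 2-14 replicate 1 (edgeR adjusted p = 0.0555 to 0.174 in the other 5). Rcor1 and Ezh1 passed only without control replicate 2 (0.0855 to 0.129 and 0.0876 to 0.141 in the other 5). The deacetylase gene Hdac1 did not pass (log2 fold change 0.23, edgeR adjusted p = 0.488).

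Of the 11 chromatin remodelers and 25 T cell enhancer factors tested, 4 passed the threshold and were higher in the edited lines (1 and 3 of them). None passed as lower, and over all genes tested 6.21% were higher. With the replicate number as a block, 3 remodelers and 6 factors were higher, and 2 of each list were lower. In that fit 18.3% of all genes were higher and 18.5% lower. Satb1, a chromatin organiser of T cells, had 42.5, 33.5, 21.6 and 19.1 CPM in the edited lines and 4.94 and 7.65 CPM in the control line (log2 fold change 2.06, SE 0.24, edgeR adjusted p = 0.00496). Nfatc2, a factor that T cell receptor signals bring into the nucleus, had 71.4, 69.0, 76.3 and 63.6 CPM in the edited lines and 17.5 and 27.3 CPM in the control line (1.60, SE 0.20, edgeR adjusted p = 0.00619). Irf4, a factor induced in activated lymphocytes, had 14.1, 17.3, 9.57 and 8.99 CPM in the edited lines and 2.69 and 5.17 CPM in the control line (1.51, SE 0.31, edgeR adjusted p = 0.0306). Arid1b, a subunit of the BAF remodeler, had 235, 229, 183 and 201 CPM in the edited lines and 124 and 154 CPM in the control line (0.59, SE 0.12, edgeR adjusted p = 0.0294). The groups did not overlap for any of these 4 genes, which also held for 43.8% of all genes tested. With a library left out, Satb1 and Nfatc2 passed in all 6 fits, while Irf4 and Arid1b passed only without control replicate 2 (edgeR adjusted p = 0.0643 to 0.0956 for Irf4 and 0.063 to 0.101 for Arid1b in the other 5).

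Runx1, a factor bound at many T cell enhancers, and Smarca4, the ATPase of the BAF remodeler, missed the threshold (log2 fold changes 0.49 and -0.25, edgeR adjusted p = 0.0929 and 0.139). Both passed with the replicate number as a block (edgeR adjusted p = 0.0191 and 0.0255), a fit in which 4260 genes (36.8%) and 28 of the 78 list genes (35.9%) passed. Without control replicate 1, the shallowest library, 379 genes passed, and without control replicate 2, 2511 did, of which 1172 were higher and 1339 lower. Without replicate 1 or 2 of line 2-12, 497 or 499 passed, and without replicate 1 or 2 of line 2-14, 581 or 482. Myeloid markers summed to 21.5 to 31.35 CPM in the edited lines and 43.75 and 58.9 CPM in the control line, most of it Cd68, with Lyz2 at most 0.5001 CPM. Itgam went the other way in line 2-12, with 3.156 and 3.416 CPM. It had 0 and 0.3268 CPM in line 2-14 and 0 in both control libraries, and it did not pass the threshold. Erythroid markers summed to 1.966 to 5.243 CPM in the edited lines and 10.52 and 14.36 CPM in the control line. In the control line most of this sum was Hba-a1, and Gata1 and Klf1 had at most 1.041 CPM in any library. B cell and fibroblast markers summed to at most 0.8414 CPM in any library. The part of these other markers in the gene values was not tested, and in bulk RNA fewer cells of a type and less RNA per cell cannot be told apart.

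**Figure D5:**
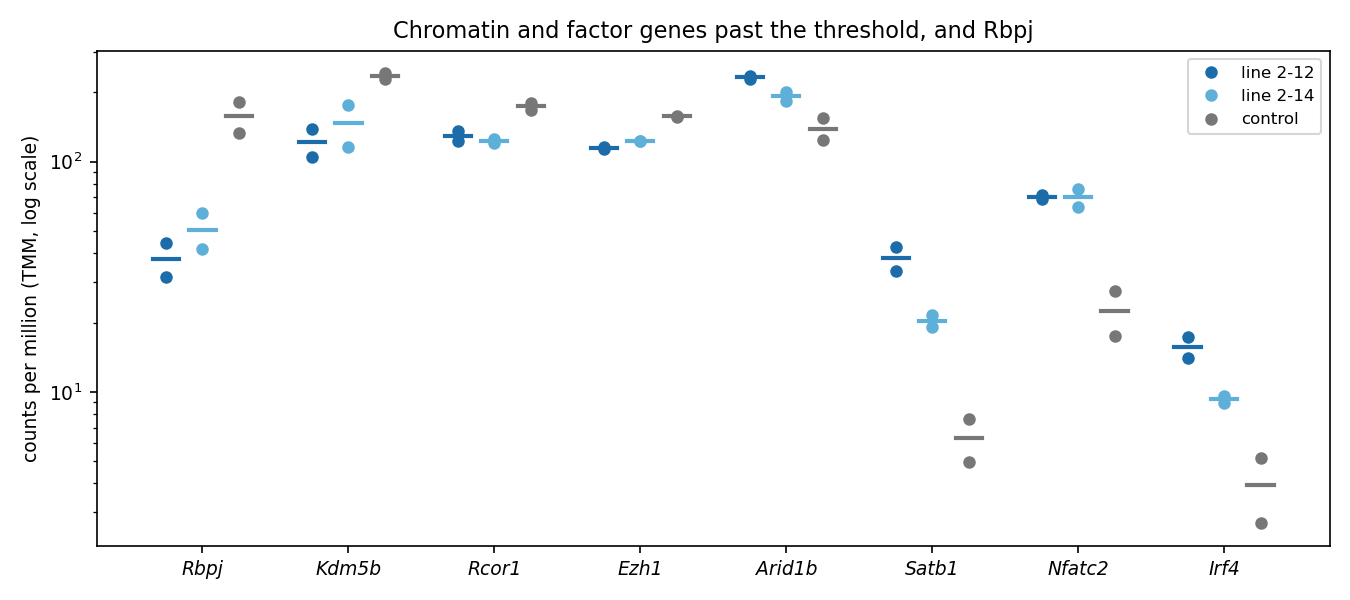
Level of Rbpj and of the 7 list genes past the threshold in each library (points) with the mean of each line (bars), in CPM on a log axis, for line 2-12, line 2-14 and the control line, with 2 libraries each. Satb1, Nfatc2, Irf4 and Arid1b lie higher in all 4 edited libraries than in both control libraries, and Rbpj, Kdm5b, Rcor1 and Ezh1 lie lower.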

How the data were processed

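The members and the gene lists were chosen with earlier results of these data known. The deposited region lists for open chromatin, H3K4me1, H3K27ac, H3K4me3 and RBPJ give positions, with a score of 0 throughout. The build is mm9, and TopHat2 2.1.1, Picard and deepTools are named without roles, per the submitters' processing notes. The peak caller, the counting tool and how replicates were combined are not given in the sources used here. Overlaps of at least 1 bp and gaps in bp were computed in Python 3.11.15. Gene names and sequences at the regions were not used here, because no annotation of that build was at hand.

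The deposited table holds raw read counts for 24391 gene symbols. Of its 65 columns, 59 were not used. For the 6 libraries of the depletion experiment, 1 mean per line was fitted under R 4.3.3 in edgeR 4.0.16, after filterByExpr and TMM scaling. Quasi-likelihood F-tests were two-sided, with Benjamini-Hochberg adjustment over all genes tested and a threshold of 0.05. The edited lines were averaged with equal weight and the control was subtracted. The level that 3 counts represent ran from 0.5001 to 1.262 CPM, which covers counting error only. No pair of replicates was a repeated library, since their counts differed by a chi-square of 6.209 to 9.757 per gene. Same-numbered libraries deviated together (r of 0.433 to 0.608 for each pair of lines), although the labels name no shared batch. With 2 libraries per line, the r of other-numbered libraries has the same size and the opposite sign by construction, so it adds nothing to the r of same-numbered ones. The library numbered 1 was the shallower one in each line, so a shared batch and depth cannot be told apart. The number was used as a block in an alternative fit only. Code was tested on simulated data.

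The genes named are Rbpj, the first tested member of each list, and up to 3 members per list with the largest fold change past the threshold. Markers, Ets1 and Bach2 are named beside them, as are writer genes whose groups did not overlap, which were picked after their values were seen. The regions named are the 5 longest, the 5 farthest from H3K27ac and the 5 longest H3K4me1 regions with 2 primed regions. The regions at the rule's border, nearest to RBPJ and in the largest groups were picked after the values were seen. Alternatives tried were stricter overlap and exclusion, longer or merged regions, shifted histone lists, another normalisation, no filter on low counts, DESeq2 1.42.0, the block and leaving out each library.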

Additional observations from a re-analysis of the deposited data

How the results depend on the processing

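The number of primed regions was 6772 when H3K4me1 had to cover at least 50% of the open region, 7393 and 7124 with no excluding region within 500 or 1000 bp, and 7601 with open regions closer than 500 bp merged. The shares of open regions were 14.2%, 15.5% and 14.9% in the first 3 of these. With H3K4me1 regions of at least 1000 bp, 4145 regions (8.68%) remained, since fewer H3K4me1 regions enter. At 50% cover the median gaps were 14813 bp to H3K27ac and 13560 bp to H3K4me3, and with the 1000 bp exclusion the median length was 485 bp. With H3K4me1 regions closer than 1000 bp merged, the share of primed sites on a H3K4me1 region that meets H3K27ac was 8.75%. For RNA, DESeq2 called 1229 genes and RLE scaling 1171. Without the filter on low counts 2671 genes passed, and with the replicate block 4260; leaving out a library gave 379 to 2511, and the cause was not tested. The share of calls that were higher was 49.8% under the block and 46.7% without control replicate 2. The log2 fold change of Setd1a ran from -0.031 to 0.13 with a library left out, turning to -0.011 without line 2-12 replicate 2 and to -0.031 without line 2-14 replicate 2. Of 150 gene values under alternatives, 119 kept side and direction, 25 lost the threshold and 4 passed it. Genes next to primed regions were not run. The control library of 2377028 counts limits what low genes can show.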

Other observations

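At primed sites and over all open regions, the histone mark lists lay slightly to the left of the open regions. Over primed regions with a single H3K4me1 region, the centre of the H3K4me1 region stood a median of 24.5 bp below that of the open region in genome coordinates, and it was lower for 54.8% of them and higher for 45.1%. The median was below 0 on each of the 20 chromosomes that hold primed regions, from -41.75 to -5.5 bp. Over all open regions the median offset was -16.5 bp for H3K4me1, -26.0 bp for H3K27ac and -24.5 bp for H3K4me3. The exception was H3K4me1 at the open regions with RBPJ, where the median was 112.5 bp to the right, with wide quartiles of -741 and 823.5 bp (1669 regions). The median offset was -25.75 bp for the BioNICD1 list and -49.75 bp for the control list of RBPJ. H3K4me1 covered 58.2% of the primed regions 500 bp to the left of the centre and 50.8% of them 500 bp to the right. This was looked at after the flanks were seen to differ. Moving each histone list by its own median offset left 7716 primed regions, and 7702 of the original ones (99.7%) were among them. The cause of the offset was not tested.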
